A study of Mus musculus with 6 samples.

Results

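The collagen genes were taken as every gene whose symbol is Col, a number, the letter a and a number, and 44 of the 32285 genes counted had such a symbol. A collagen molecule is a triple helix of alpha chains, and each of these genes encodes a chain. Fibrillar collagens such as type II form the fibrils of the vitreous, type IX and other fibril-associated collagens sit on the fibril surface, and type IV collagen forms the network of basement membranes, among them the inner limiting membrane that Muller glia lie against and the sheath of the retinal vessels. Type XVIII collagen is a basement membrane proteoglycan whose end fragment is endostatin, and several members, such as types XVII, XXIII and XXV, are transmembrane proteins.

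Levels came from single-nucleus RNA sequencing of frozen retinas of rd10 mice (B6.CXB1-Pde6b-rd10/J), which carry a mutation in the rod phosphodiesterase gene Pde6b and lose their photoreceptors. All 6 libraries were from retinas taken at P20, after an injection into the vitreous at P18 of saline (replicates 1, 2 and 6) or of 20 ng recombinant IL-27 (replicates 4, 5 and 10), a cytokine of the interleukin 12 family. The controls thus carried the same mutation and were injected too. The labels do not tie a library to an animal, so the p-values measure the spread between these libraries.

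Each library held 36678332 to 48260748 UMIs (unique molecular identifiers, which count captured RNA molecules), and 52185 of 56634 barcodes were kept as nuclei. The libraries shared 372 barcode sequences. Nuclei were clustered without the collagen genes and clusters were named from marker genes. Neurons were rods (15527 nuclei), cones (3335), bipolar cells (BC, 10243), amacrine cells (AC, 11243), horizontal cells (HC, 494) and retinal ganglion cells (RGC, 2192). Other types were microglia (1563), astrocytes (292), endothelial cells (243) and pericytes (117). Clusters named Muller (4764 nuclei) and ciliary epithelium (681) were joined as the Muller class, called Muller glia below. It held 5347 nuclei after mixed nuclei were set aside. Of the Muller nuclei, 643 formed the cluster that the study calls SIIL, taken here as the Muller subcluster with the highest mean of Fbln1, Frmpd4, Reln and Csmd3. SIIL nuclei numbered 224, 217 and 97 in saline replicates 1, 2 and 6 and 13, 6 and 86 in IL-27 replicates 4, 5 and 10, so IL-27 replicate 10 lay near the saline libraries. In this cluster 8 of 10 Muller markers, but also 6 of 8 ciliary epithelium markers, were found in at least 10% of nuclei. Zic1, a ciliary marker, was detected in 69.5% of SIIL nuclei against 4.89% of other Muller nuclei, Otx1 in 20.8% of SIIL nuclei against 0.0213%, and the Muller marker Rlbp1 in 12.9% of SIIL nuclei against 71.1%. Of 8 fibroblast markers 2 also passed 10% (Slc6a13 in 72% of SIIL nuclei against 0.191%, Ogn in 25.8% of SIIL nuclei against 1.06%), while Dcn and Lum were at 0.156% and 0% in SIIL. Levels below are UMIs per 1000000 of the summed UMIs of a cell type in a library (CPM). They are compared between cell types for 1 gene at a time and not between genes, since capture of transcripts in nuclei differs by gene.

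The source of each chain was described first, with no test, because the cell types are clusters of the same nuclei. Of the 44 chains, 23 reached a mean of 50 CPM in at least 1 cell type. By mean level, 12 chains were highest in pericytes, 11 in SIIL nuclei, 9 in AC, 2 each in other Muller nuclei, astrocytes, microglia and HC, and 1 each in endothelial cells, BC, cones and rods. These counts leave out an unnamed cluster of 1344 nuclei. There Col11a2, counted for AC at 15.1 CPM, was at 85.2 CPM with 24.4% of its UMIs, above every library of the next cluster. Col26a1, counted for pericytes, was at 33.9 CPM there, from 213 UMIs. The pericyte values rest on 107 nuclei, those of the 117 that entered the sums, and Col6a2, Col6a3, Col26a1 and Col28a1 had only 3 to 9 UMIs there. Col8a2, the endothelial chain, had only 1 UMI in that type, against 21 in the cluster named ciliary epithelium (0 to 25.4 CPM over libraries). SIIL nuclei held only 3 of its UMIs and other Muller nuclei 8, so part of the 21 lay in nuclei set aside as mixed. Summed over all 44 chains, the level was highest in SIIL, at 6032 ± 351 CPM (SD, n = 4 libraries with at least 50 SIIL nuclei). It was 3969 ± 169.9 CPM in Muller nuclei outside SIIL, 2852 ± 366 in pericytes, 1296 ± 169.9 in astrocytes, 1274 ± 66.2 in AC, 1223 ± 305 in endothelial cells and 179 ± 10.7 in cones, the lowest type (SD, n = 6 libraries). The sum weighs each chain by its captured UMIs, so chains captured well count most. In SIIL, Col23a1, Col9a1 and Col18a1 had means of 1885, 1194 and 921 CPM.

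**Figure D1:**
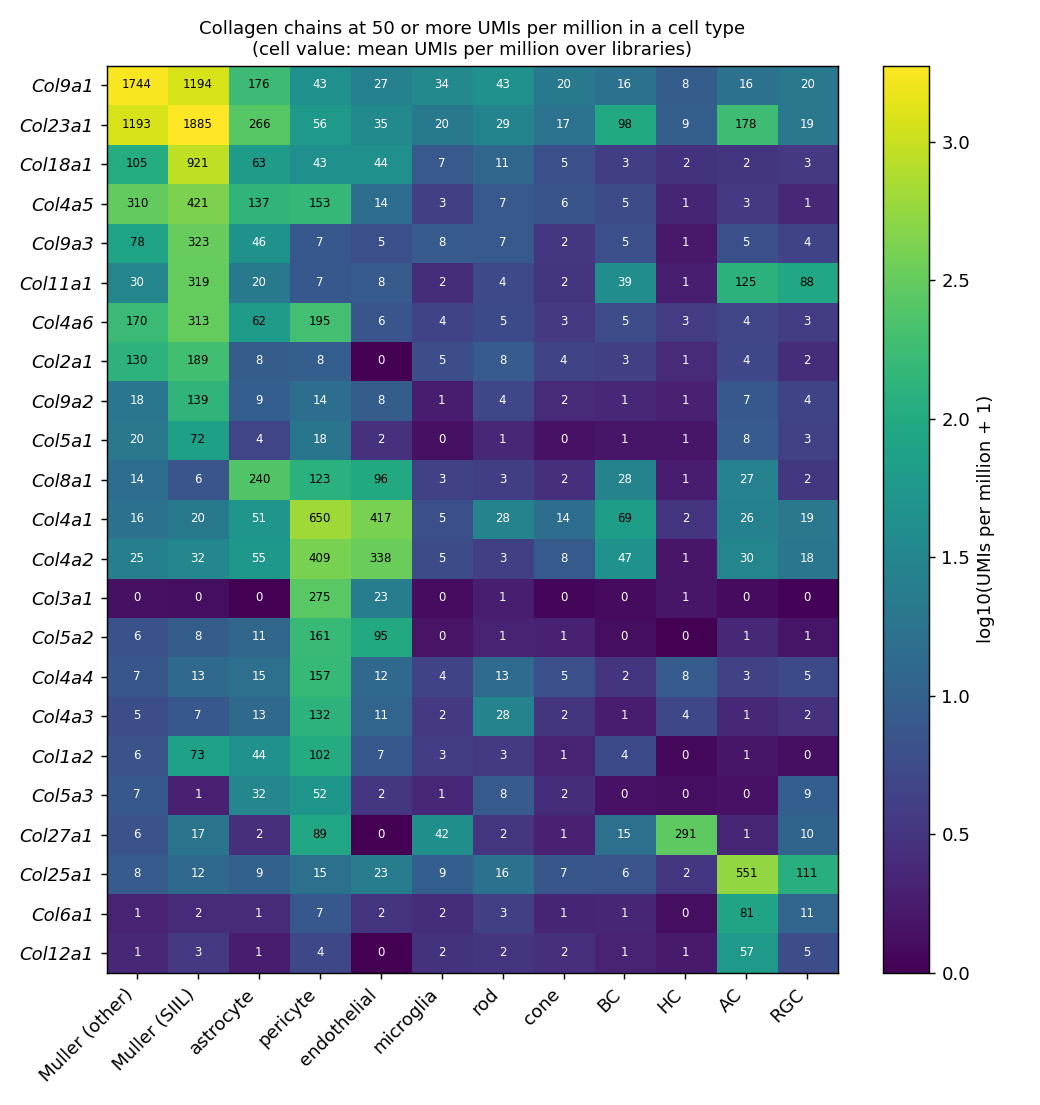
Mean level of the 23 collagen chains that reached 50 CPM in a cell type, by cell type, averaged over 6 libraries (for SIIL, over the 4 libraries with at least 50 SIIL nuclei), with a log colour scale. Col9a1 reaches 1744 in Muller nuclei outside SIIL, and Col23a1 reaches 1885 in SIIL and 1193 in other Muller nuclei. Col4a1 reaches 649.6 in pericytes, and Col25a1 reaches 551 in AC.

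Of the chains of the vitreous fibril, Col2a1, Col9a1 and Col9a3 had the largest share of their UMIs in Muller nuclei outside SIIL, whereas Col9a2 and Col11a1 had it in AC (27.7% and 59.2%, against 22.5% and 4.06% in those Muller nuclei). Col9a1, a chain of the fibril-associated type IX collagen, was at 1744 ± 153 CPM in Muller nuclei outside SIIL (lowest library 1580.0, highest 1962), against 176 in astrocytes and 8.38 to 43.5 in the other types outside the Muller class. These nuclei held 82.7% of its UMIs. Its partner chains Col9a3 and Col9a2 were at 77.8 ± 8.1 CPM (63.8 to 85.5) and 18.3 ± 4.22 CPM (12.8 to 22.8) there, and the unnamed cluster of 1344 nuclei had 38.9 CPM of Col9a2. Col2a1, the chain of type II collagen, was at 130.4 ± 35.6 CPM (74.6 to 167), and no type outside the Muller class had a mean above 8.41. Col23a1, a transmembrane collagen, was at 1193 ± 101 CPM, against 266 ± 32.4 in astrocytes, 178 ± 19.6 in AC and 98.1 ± 10.3 in BC. For Col9a1, Col2a1 and Col23a1 every library of these Muller nuclei lay above every library of each type outside the Muller class.

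Free RNA adds UMIs of abundant transcripts to all nuclei, so low levels were set beside those of Muller markers. In rods, the 10 Muller markers stood at 3.14% to 42.1% (median 16.7%) of their level in Muller nuclei outside SIIL, and the 7 collagens above 50 CPM in those nuclei stood at 2.32% to 10.6% (median 2.65%). In AC the figures were 0.772% to 14.7% (median 5.23%) for the markers and 0.81% to 14.9% (median 2.28%) for the collagens, the highest of which was Col23a1. Col23a1 stood at 14.9% of its Muller level in AC and 8.22% in BC but 2.42% in rods and 1.4% in cones. Col9a1 stood at 2.47% in rods and 0.927% in BC, below the range of the markers in both types. Whether its UMIs there come from free RNA was not tested.

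Type IV collagen was divided between cell types by chain. Its 6 genes lie in 3 head-to-head pairs, and the chains form separate networks, of Col4a1 with Col4a2, of Col4a3 with Col4a4 and Col4a5, and of Col4a5 with Col4a6. The start regions are shown for the 2 pairs with the most UMIs. They are RefSeq windows on GRCm38.p6, from 250 bases before to 50 bases after the start, at chr8:11312777-11313076 (minus strand) for Col4a1, chr8:11312555-11312854 (plus) for Col4a2, chrX:141475169-141475468 (plus) for Col4a5 and chrX:141474027-141474326 (minus) for Col4a6. They are written 5' to 3', and capitals mark CCAAT and GGGCGG on either strand (ATTGG and CCGCCC on the other).
Col4a1: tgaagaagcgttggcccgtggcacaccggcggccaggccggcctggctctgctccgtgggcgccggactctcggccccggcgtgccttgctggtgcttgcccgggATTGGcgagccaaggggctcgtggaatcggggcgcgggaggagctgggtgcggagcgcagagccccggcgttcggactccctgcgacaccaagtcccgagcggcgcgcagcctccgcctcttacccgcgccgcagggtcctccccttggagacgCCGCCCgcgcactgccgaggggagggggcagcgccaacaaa
Col4a2: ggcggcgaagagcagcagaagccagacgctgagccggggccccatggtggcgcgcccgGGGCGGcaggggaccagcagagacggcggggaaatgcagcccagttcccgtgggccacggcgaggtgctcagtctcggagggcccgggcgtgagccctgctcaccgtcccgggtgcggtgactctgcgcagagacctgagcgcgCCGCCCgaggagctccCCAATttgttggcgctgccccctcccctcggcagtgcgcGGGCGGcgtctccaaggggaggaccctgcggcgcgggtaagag
Col4a5: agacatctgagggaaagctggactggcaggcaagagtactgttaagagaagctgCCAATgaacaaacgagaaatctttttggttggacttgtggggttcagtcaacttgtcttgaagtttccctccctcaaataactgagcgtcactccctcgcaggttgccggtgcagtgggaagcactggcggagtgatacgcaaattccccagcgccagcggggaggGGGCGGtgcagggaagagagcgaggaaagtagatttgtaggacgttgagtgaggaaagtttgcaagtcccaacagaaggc
Col4a6: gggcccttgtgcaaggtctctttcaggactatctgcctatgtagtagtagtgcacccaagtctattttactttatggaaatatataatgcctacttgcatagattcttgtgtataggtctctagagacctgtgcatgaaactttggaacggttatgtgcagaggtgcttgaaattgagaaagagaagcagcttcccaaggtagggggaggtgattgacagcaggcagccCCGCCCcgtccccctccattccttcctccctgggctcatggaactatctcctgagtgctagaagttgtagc
The Col4a1 and Col4a2 windows share 78 bases, and the transcripts overlap by 22 bases at their starts, whereas the Col4a6 and Col4a5 starts lie 1343 bases apart. CCAAT, found in 37.4% of all 32851 promoters, had 1 match each in the Col4a1, Col4a2 and Col4a5 windows and 0 in that of Col4a6. GGGCGG, found in 35.7%, had 3 matches in the Col4a2 window and 1 in each of the others. The Col4a1 match lies in the shared bases and is the same site as the last Col4a2 match, read on the other strand. TATAAA, found in 13.6%, had no match in these windows. G and C made up 74.0% and 73.7% of the Col4a1 and Col4a2 windows and 52.7% and 48.3% of the Col4a5 and Col4a6 windows, beside a median of 52.7% over all promoters. RefSeq promoters were matched for 35 of the 44 members.

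Col4a1 was at 649.6 ± 189 CPM in pericytes (387 to 883) and 417 ± 67.4 in endothelial cells (327 to 491). Col4a2 was at 409 ± 109 CPM in pericytes (277 to 579) and 338 ± 68.8 in endothelial cells (206 to 392). The libraries of the vessel types overlapped for both genes. Muller nuclei outside SIIL had 15.6 CPM of Col4a1 and 25.2 of Col4a2. BC had 68.5 ± 3.9 and 46.6 ± 3.91 CPM, and being numerous held the most UMIs of both, 42.4% of Col4a1 and 35.9% of Col4a2. How reads over the overlap of these genes at their starts were counted was not tested.

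Col4a3 was at 132 ± 69.6 CPM in pericytes (51.3 to 225, 36 UMIs in all) and 28.4 ± 6.93 in rods, which held 54.3% of its UMIs, and every pericyte library lay above every rod library. Col4a4 was at 157 ± 47.1 CPM in pericytes (68.4 to 202, 43 UMIs), above every library of astrocytes, the next type at 15.1.

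Col4a5 and Col4a6 had their UMIs mostly in Muller glia. Col4a5 was at 310.0 ± 23.9 CPM in Muller nuclei outside SIIL, 153 ± 81.9 in pericytes, 137 ± 31.5 in astrocytes and 14.1 in endothelial cells. Col4a6 was at 170.4 ± 25.2 CPM in those Muller nuclei, 195 ± 144 in pericytes (49 UMIs), 61.6 ± 25 in astrocytes and 6.21 in endothelial cells. Muller nuclei outside SIIL held 75.3% of the UMIs of Col4a5 and 67.4% of those of Col4a6. Both genes are on the X chromosome, and the transcript Xist was at 2028 CPM in saline replicate 2 and 1999 CPM in IL-27 replicate 5 but below 1 in the other 4 libraries. These libraries, 1 in each group, had the highest Col4a5 of their groups in Muller nuclei outside SIIL, at 327 and 347 CPM against 284 to 314 in the others. For Col4a6 they were at 181 and 209 CPM against 144 to 185, with overlap.

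**Figure D2:**
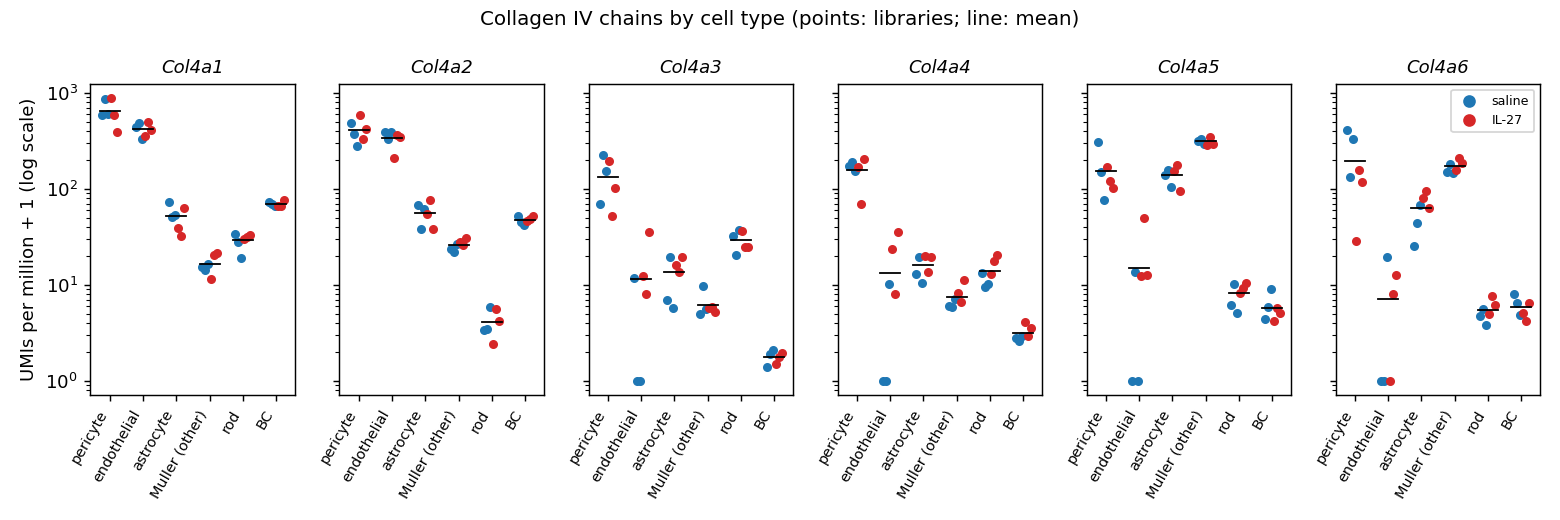
Level of the 6 type IV collagen chains in 6 cell types, in CPM; each point is a library (saline or IL-27 by colour). Among the types drawn, Col4a1 and Col4a2 stand highest in pericytes and endothelial cells, and Col4a3 and Col4a4 in pericytes. Col4a5 stands highest in Muller nuclei outside SIIL, and Col4a6 in pericytes and those Muller nuclei. SIIL nuclei are not drawn.

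Other chains were also highest in pericytes by mean level. Pericytes held 45.1% of the UMIs of Col3a1, but 10.5% for Col5a2, 3.68% for Col1a2 and 2.43% for Col5a3. The next type for Col1a2 was SIIL at 73.3 CPM, with overlap. Col3a1, the chain of type III collagen of vessel walls, was at 275 ± 68.2 CPM in pericytes (170.4 to 356, 77 UMIs) and 23.1 ± 29.1 in endothelial cells, and every pericyte library was higher. Col5a2, of the fibrillar type V collagen, was at 161 ± 111 CPM in pericytes (68.1 to 359) and 95.3 ± 90.6 in endothelial cells, with overlap. Col1a2, of type I collagen, was at 102 ± 42 CPM (68.4 to 170.4) from 26 UMIs, and Col5a3 at 52.2 ± 49.6 CPM (0 to 137) from 16 UMIs, so neither was measured closely. Col8a1, a short-chain network collagen, was highest in astrocytes at 240.0 ± 128 CPM (48.4 to 412), overlapping pericytes at 123 ± 42.1 and endothelial cells at 95.8 ± 115. Microglia were the highest type for Col14a1 (28.4 ± 9.83 CPM) and Col15a1 (33.7 ± 13.1 CPM).

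Among neurons, AC held the largest share of several chains. Col25a1, a transmembrane collagen, was at 551 ± 40 CPM in AC (518 to 612) and 111 ± 30 in RGC, and AC held 88.7% of its UMIs. An AC cluster of 751 nuclei with Chat and Slc5a7, genes of cholinergic cells, among its leading genes held Col25a1 at 4541 ± 367 CPM, above every library of the next cluster, and 58.5% of its UMIs. Col12a1, a fibril-associated collagen, was at 57 ± 5.4 CPM in AC (50.8 to 63.2) and 289 ± 48.2 in an AC cluster of 1382 nuclei led by Spink13 and Esr1. Col11a1, of the fibrillar type XI collagen, was at 125 ± 14.6 CPM in AC and 87.6 ± 9.61 in RGC, and reached 525 ± 98.5 in an AC cluster of 1057 nuclei led by Vip, overlapping the next AC cluster at 391. Col6a1, of the beaded-filament type VI collagen, was at 80.9 ± 4.0 CPM in AC (76.7 to 87), with 88.6% of its UMIs, against 10.7 in RGC. Col24a1, a fibrillar chain, reached 121 ± 34.4 CPM in an AC cluster of 400 nuclei led by Slc17a8, a vesicular glutamate transporter gene, and Col6a4 had 62.2% of its UMIs in an AC cluster of 1177 nuclei.

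Col27a1, a fibrillar chain of cartilage, was at 291 ± 13.8 CPM in HC, where the libraries ran from 271 to 312 and all lay above pericytes, the next type at 89.2 ± 37.9. HC held 43.4% of its UMIs from 494 nuclei. Col17a1, the transmembrane collagen of hemidesmosomes, was at 24.4 ± 6.86 CPM in cones and 12.4 in BC, but a BC cluster of 1029 nuclei led by Slc7a15 had 65.2 ± 14.2 CPM, above cones in every library. Col7a1, the anchoring fibril chain, was at 23.7 ± 1.33 CPM in BC and 17.6 in HC. Col1a1, Col6a4, Col6a5, Col6a6, Col8a2, Col10a1, Col13a1, Col16a1, Col19a1 and Col28a1 had means of 1.79 to 14 CPM in their highest type.

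The collagens of the SIIL cluster were then set beside those of other Muller nuclei, again with no test. Levels are from saline replicates 1, 2 and 6 and IL-27 replicate 10, the 4 libraries with at least 50 SIIL nuclei, and are given in that order. Of 38 members with at least 10 UMIs in the Muller class, 7 were at least 4 times as high in SIIL (Col1a1, Col1a2, Col6a2, Col9a2, Col9a3, Col11a1 and Col18a1) and 4 were at most 0.25 times as high (Col5a3, Col15a1, Col17a1 and Col22a1). Over all 18063 genes with that many UMIs, the shares were 7.56% and 8.93%. In these libraries every SIIL value lay above every value of other Muller nuclei for 12 of the 38 members and below for 6, beside 16.6% and 16.8% of all genes.

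Col18a1 was at 1095, 1054, 944 and 589.9 CPM in SIIL nuclei against 99.4, 102, 109.8 and 107 CPM in other Muller nuclei, a ratio of means of 8.81. The 643 SIIL nuclei held more of its UMIs than any other type, 42.3%. Col11a1 was at 334, 369, 326 and 249 CPM against 23.2, 26.3, 15.8 and 36.7, a ratio of 12.5. IL-27 replicate 10 had the lowest Col18a1 and Col11a1 of the 4 in SIIL. Col1a2 was at 78.1, 50.7, 100.5 and 64 CPM against 3.24, 6.29, 6.21 and 4.64, a ratio of 14.4. Col1a1 and Col6a2 met the same limit from 11 and 9 UMIs in SIIL, with 2.74, 6.19, 6.09 and 7.11 CPM against 0.927, 1.64, 0 and 1.43 for Col1a1 and 5.48, 2.47, 9.13 and 0 CPM against 0.232, 0.821, 1.24 and 0.714 for Col6a2, which overlapped.

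The type IX chains divided within SIIL. Col9a2 was at 158, 125, 146 and 128 CPM against 20.6, 22.4, 15.8 and 12.8, a ratio of 7.76. Col9a3 was at 342, 266, 332 and 352 CPM against 85.5, 75.8, 76 and 80.3, a ratio of 4.07. Col9a1 went the other way, at 1178, 976, 1199 and 1421 CPM against 1962, 1690.0, 1813 and 1584, a ratio of 0.677, and every SIIL library was below every other Muller library. Among network chains, Col4a6 and Col4a5 were 1.9 and 1.37 times as high in SIIL without overlap, and Col4a1 and Col4a2 overlapped at ratios of 1.28 and 1.28. Col5a1 was at 107, 85.4, 60.9 and 35.5 CPM against 21.3, 17.2, 21.1 and 12.8, a ratio of 3.98. Col23a1 was 1.66 times as high without overlap, and Col2a1 1.42 times as high with overlap.

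Of the chains low in SIIL, Col22a1, a fibril-associated collagen of tissue junctions, was at 2.74, 3.71, 0 and 3.55 CPM against 12.1, 13.1, 10.9 and 22.5 (6 UMIs in SIIL). Col5a3 was at 2.74, 1.24, 0 and 0 CPM against 6.49, 7.66, 5.58 and 11.1, from 3 UMIs in SIIL. Col15a1 and Col17a1 had 2 and 0 UMIs in SIIL, and their means in other Muller nuclei were only 2.56 and 0.711 CPM.

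**Figure D3:**
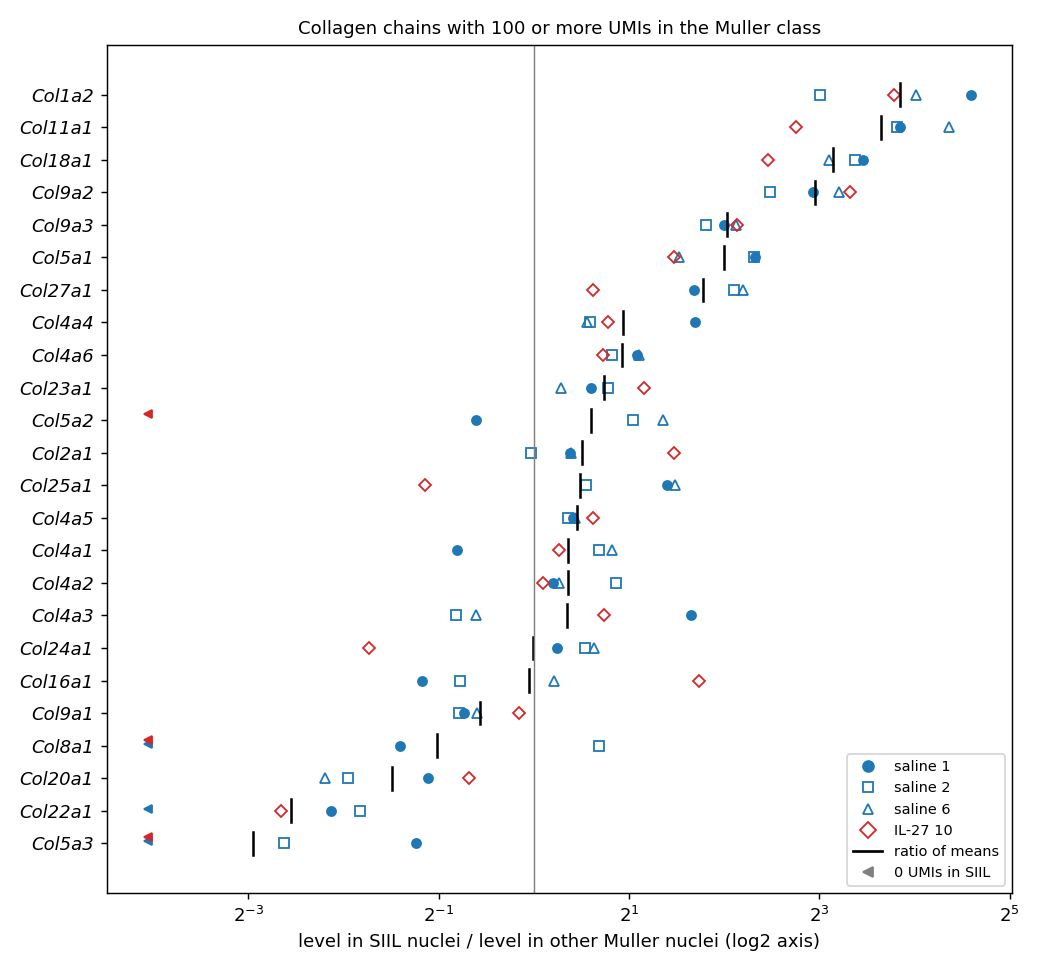
Ratio of the level in SIIL nuclei to that in other Muller nuclei of the same library, on a log axis, for collagen chains with at least 100 UMIs in the Muller class; each symbol is 1 of the 4 libraries with at least 50 SIIL nuclei, coloured by treatment. The ratios of the means run from 0.129 for Col5a3 to 14.4 for Col1a2.

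A list of 51 genes of collagen synthesis, receptors and turnover was set beside the chains, and 47 had at least 10 UMIs in the Muller class. Of these, 7 were at least 4 times and 5 at most 0.25 times as high in SIIL, and 12 were higher and 13 lower in SIIL without overlap, beside the shares of all genes given above. Among the 28 synthesis genes, 8 were higher and 8 lower without overlap. The procollagen enhancer Pcolce was at 25.5 CPM against 4.0 in other Muller nuclei, its relative Pcolce2 at 2.14 CPM against 88.9, the crosslinking enzyme Loxl1 at 67.2 CPM against 11 and the collagen chaperone Serpinh1 at 88.4 CPM against 38.5 (means of 4 libraries). The collagen hydroxylases P3h2 and Plod2 were at 13.4 CPM against 129 and 57.3 CPM against 218, and the procollagen proteinases Adamts3 and Bmp1 at 9.38 CPM against 82.6 and 26.7 CPM against 95.1. The endocytic collagen receptor Mrc2 was at 30.2 CPM against 0.701 and the inhibitory receptor Lair1 at 2.23 CPM against 54.4. The collagen receptor Ddr2 was at 113 CPM against 23.6 and Ddr1 at 159.5 CPM against 399. The library ranges did not overlap for these 12 genes, which were chosen after their values were seen.

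The second comparison was of IL-27 with saline. UMIs were summed per library and type, and the 3 IL-27 libraries were compared with the 3 saline libraries by edgeR's quasi-likelihood test, two-sided, with Benjamini-Hochberg adjustment over all genes tested in a type. Fold changes are log2 of IL-27 over saline with their standard error. In sums over a type, fewer cells of a subtype and less RNA per cell cannot be told apart. In all Muller nuclei 27 members passed the filter on low counts, and 0 had an adjusted p below 0.05, beside 0.036% of 13891 genes. At an unadjusted p below 0.05 there were 9, with 3 higher and 6 lower, beside 4.11% and 5.21% of genes. DESeq2 called 1, Col18a1, beside 0.727% of genes. The median fold change of the 27 was -0.03, beside 0.00 over all genes. All IL-27 libraries lay above all saline libraries for 3 members and below for 4, beside 6.8% and 7.19% of genes.

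Col18a1 was at 251, 277 and 185 CPM in saline and 113, 109 and 154 CPM with IL-27 in all Muller nuclei (replicates in the order 1, 2 and 6, then 4, 5 and 10). All IL-27 libraries were lower, replicate 10 the least so, and the fold change was -0.91 ± 0.17 (adjusted p = 0.11 by edgeR). Without the SIIL nuclei it was at 99.4, 102 and 109.8 CPM in saline and 111, 103 and 107 CPM with IL-27, the groups overlapped, and the fold change was 0.05 ± 0.10, adjusted p = 0.993. SIIL nuclei held 65.1, 69.7 and 46.7% of the Col18a1 UMIs of Muller glia under saline and 3.14, 4.24 and 35.6% under IL-27. Without IL-27 replicate 10 the fold change in all Muller nuclei was -1.06, with an edgeR adjusted p of 0.00368.

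Col9a2, Col1a2 and Col5a1, the other members with all IL-27 libraries lower in all Muller nuclei, moved in the same way between the sums. Col9a2 was at 41.1, 42 and 27.9 CPM in saline and 23.3, 15.5 and 23.6 CPM with IL-27 in all Muller nuclei, without overlap (-0.82 ± 0.20, adjusted p = 0.212), and its fold change without SIIL was -0.21 ± 0.22, with overlap. Col1a2 was at 14.3, 14.3 and 14.7 CPM in saline and 9.15, 6.69 and 10 CPM with IL-27, without overlap (-0.73 ± 0.20, adjusted p = 0.255), and without SIIL at 3.24, 6.29 and 6.21 CPM in saline and 8.69, 6.46 and 4.64 CPM with IL-27 (0.38 ± 0.34). Col5a1 was at 34.3, 29.3 and 24.5 CPM in saline and 23, 21.9 and 14.9 CPM with IL-27, without overlap (-0.53 ± 0.20, adjusted p = 0.44), and its fold change without SIIL was -0.03 ± 0.21. SIIL nuclei held 56.4, 55.2 and 48.5% of the Col9a2 UMIs of Muller glia under saline and 3.8, 1.75 and 50% under IL-27.

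Col11a1 turned its sign between the sums. In all Muller nuclei it was at 72.1, 91.3 and 44 CPM in saline and 41.9, 40.9 and 56.6 CPM with IL-27, with overlap (-0.56 ± 0.23, adjusted p = 0.49). Without SIIL it was at 23.2, 26.3 and 15.8 CPM in saline and 39.6, 40.1 and 36.7 CPM with IL-27, and every IL-27 library was higher (0.83 ± 0.17, adjusted p = 0.277). AC, the type with the most Col11a1 UMIs, gave a fold change of 0.18 ± 0.11, adjusted p = 1.

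**Figure D4:**
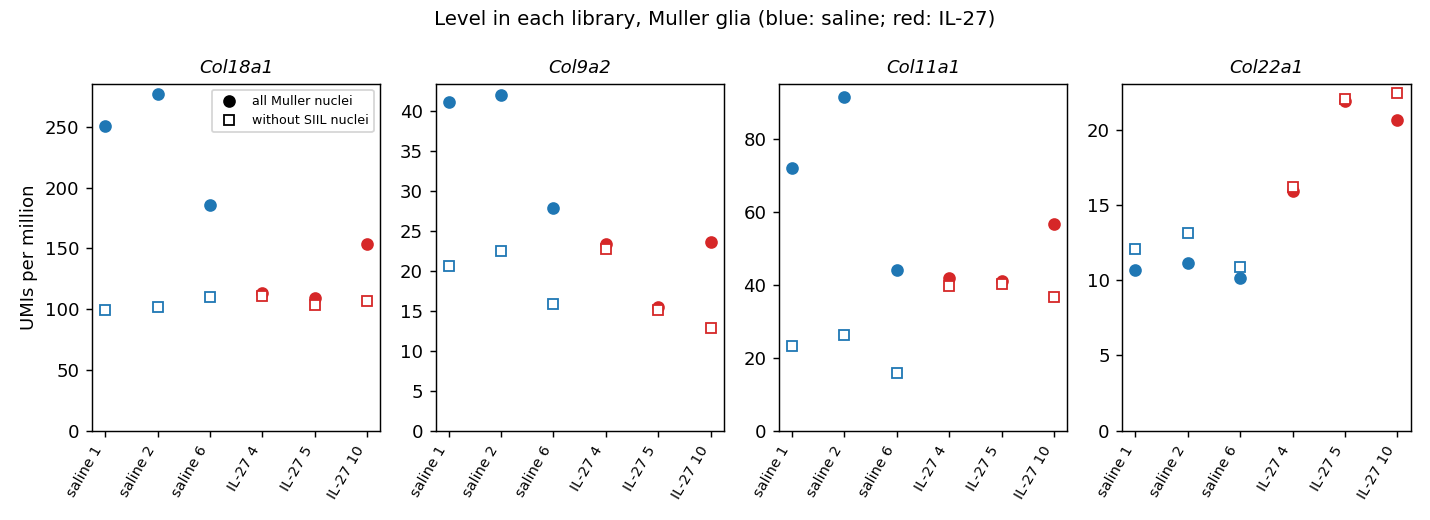
Level of Col18a1, Col9a2, Col11a1 and Col22a1 in Muller glia of each library, in CPM, for all Muller nuclei and without SIIL nuclei, with saline and IL-27 by colour. For Col18a1 the libraries without SIIL lie between 99.4 and 111, while with SIIL the saline libraries reach 277.

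Without SIIL nuclei, 25 members were tested in Muller glia and 0 had an edgeR adjusted p below 0.05, beside 0.0371% of 13468 genes (DESeq2 called 0 members, beside 0.156% of genes). At an unadjusted p below 0.05 there were 6, with 4 higher and 2 lower, beside 3.13% and 1.96% of genes. The median fold change was 0.13, beside 0.00. All IL-27 libraries lay above saline for 4 members and below for 0, beside 5.12% and 5.17% of genes.

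The 4 were Col11a1, Col22a1, Col24a1 and Col8a1. Col22a1 was at 12.1, 13.1 and 10.9 CPM in saline and 16.2, 22.1 and 22.5 CPM with IL-27 (0.75 ± 0.19, adjusted p = 0.526), and with SIIL included its fold change was 0.89 ± 0.18, adjusted p = 0.126. Col24a1 was at 6.95, 7.66 and 5.89 CPM in saline and 11.1, 9.96 and 11.8 CPM with IL-27 (0.67 ± 0.22, adjusted p = 0.897). Col8a1 was at 10.9, 13.1 and 7.45 CPM in saline and 21.6, 13.7 and 19.6 CPM with IL-27 (0.78 ± 0.24, adjusted p = 0.877), but its fold change turned to -0.89 when collagen genes were kept in the clustering. Of the Muller-class nuclei that had been set aside as mixed, 8 of saline replicate 6 held 246 Col8a1 UMIs, and each carried 2 to 6 of 7 markers of the retinal pigment epithelium, while set-aside nuclei of the other libraries had at most 4 Col8a1 UMIs in a library. Col2a1 was at 147, 143 and 167 CPM in saline and 152, 99 and 74.6 CPM with IL-27 (-0.48 ± 0.20, adjusted p = 0.967), with IL-27 replicate 4 among the saline libraries. Col16a1, fibril-associated, had a fold change of -0.85 ± 0.27, adjusted p = 0.877, with overlap.

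The chains with the highest CPM in Muller glia overlapped between the groups. Outside SIIL, Col9a1 was at 1962, 1690.0 and 1813 CPM in saline and 1837, 1580.0 and 1584 CPM with IL-27 (-0.12 ± 0.11, adjusted p = 0.973). Col23a1 was at 1148, 1080.2 and 1192 CPM in saline and 1264, 1353 and 1119.9 CPM with IL-27 (0.13 ± 0.11, adjusted p = 0.971). Col4a5 (-0.01 ± 0.11), Col4a6 (0.21 ± 0.13) and Col9a3 (-0.05 ± 0.12) overlapped between groups as well.

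**Figure D5:**
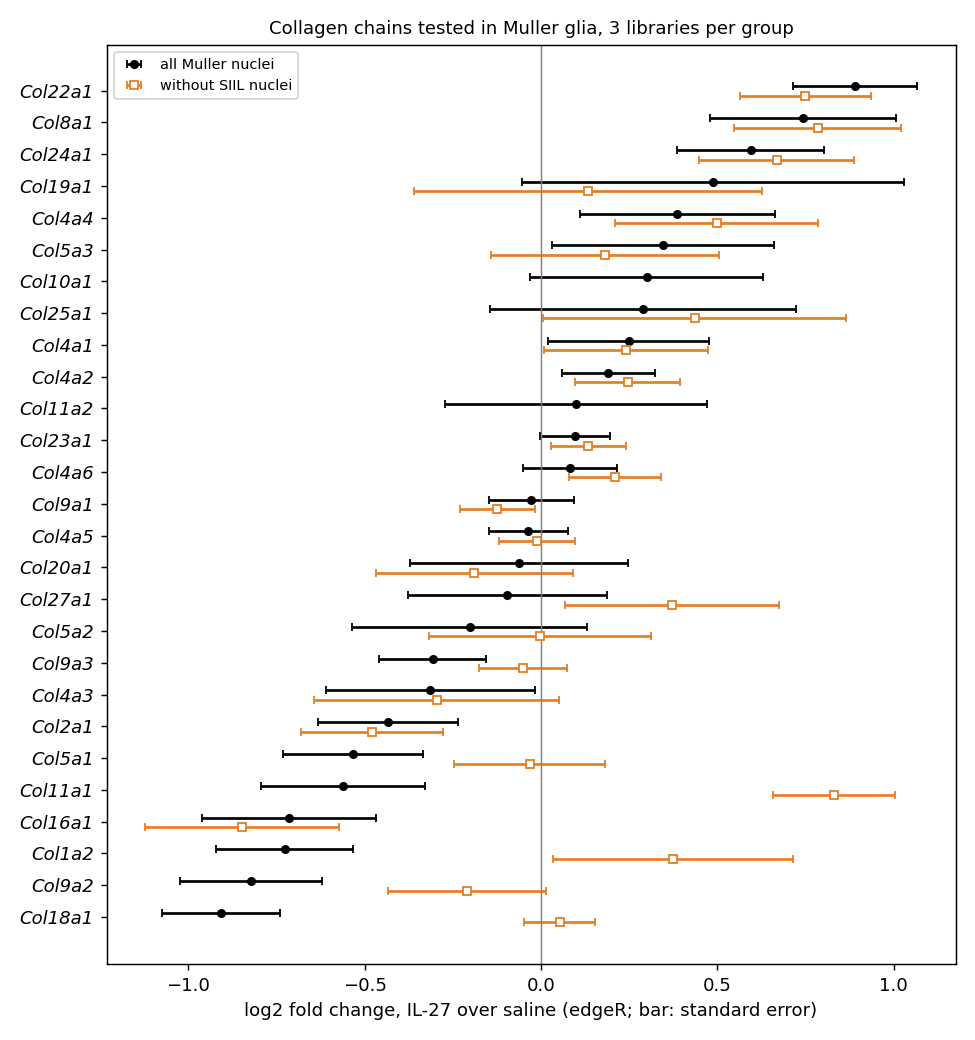
Log2 fold change of IL-27 over saline with its standard error for the collagen chains tested in Muller glia, in all Muller nuclei and without SIIL nuclei, 3 libraries per group. Col18a1 moves from -0.91 to 0.05 and Col11a1 from -0.56 to 0.83 when SIIL nuclei are left out.

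Of the 51 synthesis, receptor and turnover genes, 42 were tested in all Muller nuclei and 39 without SIIL, and 0 were called by edgeR in either. At an unadjusted p below 0.05, 1 was higher and 2 lower in each sum, beside 4.11% and 5.21% of all genes in all Muller nuclei and 3.13% and 1.96% without SIIL. The median fold changes were -0.02 and -0.03, beside 0.00 and 0.00. Loxl1 was at 19.3, 21.2 and 19.4 CPM in saline and 9.15, 6.96 and 13.3 CPM with IL-27 in all Muller nuclei (-1.02 ± 0.21, adjusted p = 0.15), without overlap.

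In the other cell types edgeR called no member, and DESeq2 called none. Endothelial cells gave 0 of 2 (0% of 2208 genes; 0 at an unadjusted p below 0.05, beside 3.08% of genes) and pericytes 0 of 3 (0.111% of 897 genes; 0 at an unadjusted p below 0.05, beside 4.68% of genes). Col4a1 was at 441, 484 and 327 CPM in saline and 355, 491 and 405 CPM with IL-27 in endothelial cells (0.03 ± 0.26). In pericytes it was at 579, 861 and 605 CPM in saline and 883, 582 and 387 CPM with IL-27 (-0.16 ± 0.32). Col4a2 gave -0.26 ± 0.28 in endothelial cells and 0.28 ± 0.35 in pericytes, and Col3a1 gave -0.04 ± 0.39 in pericytes, all with overlap.

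Astrocytes gave 0 of 7 (0% of 3533 genes; 0 at an unadjusted p below 0.05, beside 3.71% of genes), and Col8a1 there was at 48.4, 229 and 349 CPM in saline and 214, 412 and 187 CPM with IL-27 (0.28 ± 0.40). HC gave 0 of 5 (0% of 7653 genes; 0 at an unadjusted p below 0.05, beside 4.83% of genes), and Col27a1 was at 295, 287 and 312 CPM in saline and 295, 284 and 271 CPM with IL-27 (-0.07 ± 0.11). AC gave 0 of 37 (0.006% of 16668 genes; 4 at an unadjusted p below 0.05, beside 2.84% of genes). Col25a1 in AC was at 546, 612 and 519.8 CPM in saline and 518, 587 and 523 CPM with IL-27 (-0.03 ± 0.08), and Col6a1 (0.00 ± 0.08) and Col12a1 (0.02 ± 0.10) overlapped too. RGC gave 0 of 26 (0% of 13882 genes; 1 at an unadjusted p below 0.05, beside 3.21% of genes).

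Microglia gave 0 of 5 (0% of 8293 genes; 2 at an unadjusted p below 0.05, beside 3.29% of genes), rods 0 of 20 (0.00755% of 13252 genes; 2 at an unadjusted p below 0.05, beside 3.41% of genes), cones 0 of 8 (0% of 10706 genes; 1 at an unadjusted p below 0.05, beside 3.66% of genes) and BC 0 of 22 (0% of 14856 genes; 2 at an unadjusted p below 0.05, beside 3.3% of genes). Col9a1 was at an unadjusted p below 0.05 and lower with IL-27 in these 4 types and in AC. In rods it was at 56.6, 51.6 and 43.4 CPM in saline and 36.9, 31.9 and 38.4 CPM with IL-27 (-0.49 ± 0.13, adjusted p = 0.999). In BC it was at 15.8, 19.4 and 29.6 CPM in saline and 10.6, 8.73 and 12.8 CPM with IL-27 (-1.01 ± 0.22, adjusted p = 1), and Col18a1 was at 4.67, 5.37 and 4.33 CPM in saline and 1.47, 1.03 and 1.74 CPM with IL-27 (-1.75 ± 0.29, adjusted p = 0.328). The groups did not overlap for these 3. Col9a1 in rods and BC stood below the range of the Muller markers, as given above. Col18a1 in BC stood at 2.94% of its level in Muller nuclei outside SIIL, within the 1.16% to 16.2% (median 5.49%) of the Muller markers. That base leaves out SIIL nuclei, which were at 921 CPM and held 42.3% of the Col18a1 UMIs. The part of free RNA in these differences between the groups was not tested. In microglia, Col23a1 was at 24.7, 30.3 and 35.7 CPM in saline and 12.2, 13.8 and 2.81 CPM with IL-27 (-1.44 ± 0.43, adjusted p = 1).

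Over all retained nuclei of a library, all 44 members were tested and edgeR called 0, beside 0% of 20358 genes, while DESeq2 called 1, Col18a1, beside 0.103% of genes. At an unadjusted p below 0.05 there were 7, with 1 higher and 6 lower, beside 1.33% and 1.51% of genes. Col18a1 was at 38.4, 41.3 and 22.2 CPM in saline and 13.5, 13.9 and 21 CPM with IL-27 (-1.09 ± 0.24, adjusted p = 1). Col2a1 was at 24.6, 22.1 and 21.1 CPM in saline and 18.5, 13.1 and 12 CPM with IL-27 (-0.64 ± 0.17). All IL-27 libraries lay above saline for 2 members and below for 5, beside 3.83% and 3.77% of genes. Muller nuclei, SIIL included, numbered 1134, 997 and 869 in saline libraries and 800, 828 and 719 in IL-27 libraries. Each IL-27 library thus had fewer. Without SIIL nuclei they numbered 910, 780 and 772 in saline libraries and 787, 822 and 633 in IL-27 libraries, with overlap.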

How the data were processed

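The authors deposited whole-number UMI counts per gene and barcode for 6 libraries, made with Cell Ranger (9.0.1 per the submitters' processing notes, which also name Seurat 5.2.1, but 8.0.1 per the file headers). The genome build is not given in the sources used here. A barcode was kept if its UMIs exceeded 500, it had 200 or more genes and mitochondrial UMIs made up less than 5%, and 4020 barcodes were removed by Scrublet score at a doublet rate of 8%. Clustering left out the collagen genes (2000 variable genes, 25 components, 20 neighbours, Louvain resolution 0.25, igraph 0.11.9), and a cluster was named from at least 3 markers found in 10% of its nuclei. Clusters named Muller or, for 681 nuclei, ciliary epithelium from their markers formed the Muller class and were clustered again (4000 variable genes, 10 components) without the 4 SIIL genes. Unnamed or mixed nuclei (1589) were set aside.

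Counts were summed per library and type, without nuclei beyond 2 median absolute deviations, and tested with edgeR 4.0.16 in R 4.3.3 (filterByExpr at 10, TMM, adjusted p of 0.05) after a check on simulated data, with DESeq2 1.42.0 as an alternative. Pericyte sums held only 29351 to 59374 UMIs, so counting error is large there. Genes given in full were those called, those at 50 CPM in a type, and those at least 4 times or at most 0.25 times as high in SIIL. Others named were chosen after their values were seen. The members and lists were chosen with earlier results of these data known.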

Additional observations from a re-analysis of the deposited data

How the results depend on the processing

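No paired analysis was possible because the saline and IL-27 libraries share no replicate numbers. The alternatives were DESeq2, other scalings, a stricter or no filter on low counts, all retained nuclei, no removal of doublets, collagen genes kept in the clustering, a resolution of 0.5, the SIIL share as a covariate and each library left out. The number of collagen genes called, 0 in each comparison, rose to 1 with DESeq2 in Muller glia and in the whole retina (Col18a1), and, with no filter on low counts, to 3 in Muller glia, 2 without SIIL and 2 in BC. Without a filter the calls over all genes also rose. They went from 5 to 338 of 23918 genes in Muller glia and from 5 to 113 of 23512 without SIIL. In BC they went from 0 to 57 of 24751. Leaving out each library gave 0 to 2 in Muller glia, with 2 (Col18a1 and Col22a1) without IL-27 replicate 10, where 400 genes were called. The cause was not tested. The highest type was the same for 43 of 44 chains without removal of doublets (Col16a1 moved from SIIL to other Muller nuclei). In that setting nuclei were not clustered again, and retained nuclei kept their classes. Each removed barcode took the majority class of its nearest retained neighbours, so only the added barcodes could change the ranking.

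Fold changes that turned their sign were mostly near 0. With the SIIL share as a covariate, Col11a1 in Muller glia was at 0.28 and Col9a3 at 0.0434. With collagens kept in the clustering, Col8a1 was at -0.82 in Muller glia and -0.89 without SIIL, Col4a5 without SIIL at 0.00285 and Col6a1 in AC at 0.0074. With all retained nuclei, Col5a1 without SIIL was at 0.00235, Col3a1 in pericytes at 0.00316, and Col25a1 and Col6a1 in AC at 0.00721 and 0.0259. Without removal of doublets, Col4a1 in endothelial cells was at -0.11 and Col6a1 in AC at 0.00198. Leaving out each library gave ranges across 0 in Muller glia for Col9a1 (-0.12 to 0.033), Col4a5 (-0.13 to 0.0213) and Col4a6 (-0.0103 to 0.19). Without SIIL it did so for Col9a3 (-0.15 to 0.0579), Col4a5 (-0.12 to 0.0379) and Col5a1 (-0.17 to 0.18). The other such ranges were those of Col4a1 in endothelial cells (-0.10 to 0.13) and pericytes (-0.47 to 0.0564), Col3a1 in pericytes (-0.27 to 0.17), Col8a1 in astrocytes (-0.16 to 0.92), and Col25a1 (-0.10 to 0.0426), Col6a1 (-0.0743 to 0.0385) and Col12a1 (-0.0705 to 0.0971) in AC.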
